A study of Homo sapiens with 4 samples.

Results

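Matrix crosslinking enzymes are the genes whose products join collagen and elastin molecules to each other after secretion or prepare them for it. The set was chosen by name, as 10 genes: the lysyl oxidases LOX, LOXL1, LOXL2, LOXL3 and LOXL4, peroxidasin (PXDN), the lysyl hydroxylases PLOD1, PLOD2 and PLOD3, and transglutaminase 2 (TGM2). The study sequenced RNA recovered with PARP1, a nuclear ADP-ribosyltransferase, from HK-2, an established epithelial line derived from human kidney proximal tubule. It holds 2 PARP1 immunoprecipitations, called IP 1 and IP 2, for which a Flag antibody was used, and 2 inputs; the labels give no treatment, name no control IP and do not say whether a tagged PARP1 was introduced. The inputs were not analysed here. The analysed values are 1 list for each IP of mutated bases, called sites: each is 1 base on 1 strand, with the count of sequenced tags over it and the count of tags with a substitution, deletion or insertion there.

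The 10 genes are among 19922 annotated protein-coding genes. They received 139 of the 166248 sites of IP 1 and 158 of the 229782 sites of IP 2. On the strand of the gene (sense sites) there were 119 and 141, a ratio of 1.18 between IP 2 and IP 1, against 1.21 over all protein-coding genes. A site needs mismatched tags, so a gene without sites is not shown to be absent from the RNA. Without input values, the level of each transcript cannot be told apart from its recovery with PARP1. Whether the IPs were made from separate cultures is not stated in the labels, so their spread, and any p-value from it, can be technical.

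Lysyl oxidases are secreted, copper-dependent amine oxidases that turn lysine and hydroxylysine side chains of collagen and elastin into reactive aldehydes, from which covalent crosslinks form. Lysyl hydroxylases act earlier, in the endoplasmic reticulum, where they hydroxylate collagen lysines and so set which crosslinks can form. Peroxidasin is a heme peroxidase of basement membranes that forms the sulfilimine bonds of collagen IV, and transglutaminase 2 joins glutamine to lysine side chains. In the kidney some of these enzymes are known for a part in stiffening the matrix during fibrosis.

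The sequences around exon sites of 4 genes are shown because these sites have the clearest place on the mature transcripts. They are the sense strand of the principal GENCODE 29 transcripts (GRCh38), read 5′ to 3′, and the capitals mark the listed base or run of bases. The PXDN line is the site found in both IPs, and the LOXL4 line is a coding site of IP 1 in which every tag was mutated. The PLOD2 and TGM2 lines are deletions.
PXDN exon 17, chr2:1648874-1648902, minus strand: atgcgggacgagaaCgagagccccatccc
LOXL4 exon 8, chr10:98257682-98257710, minus strand: ccaacatgagaatgAtgctgctgtcaggt
PLOD2 exon 10, chr3:146086829-146086858, minus strand: tgaaatcaaaactaTAaaaatagtaggacc
TGM2 exon 13 (3′ UTR, IP 1), chr20:38128844-38128872, minus strand: agctaccccttcttTgcagggctaaggcc
TGM2 exon 13 (3′ UTR, IP 2), chr20:38129858-38129886, minus strand: tgtttgatctacttCatagctccttggag

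The PLOD2 line shows a deletion of 2 bases that the list of IP 2 gives as 2 neighbouring sites. Such runs of neighbouring bases with the same tags held 25 of the 119 sense sites of IP 1, in 10 runs, and 23 of the 141 of IP 2, in 11 runs. Of these, 8 and 10 were deletions. Counted once for each run, the members had 104 and 129 sense sites. The PLOD2 and first TGM2 deletions could each be placed at 3 positions with the same resulting sequence, and the second TGM2 deletion at 1.

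Of the 10 genes, 9 were named in IP 1 by a site on either strand, where 61.6% of all protein-coding genes were, and 8 in IP 2, against 65.7%. Both IPs named 8 of the 10, against 55.5%. By sense sites 7 were found in both, against 50.8%: LOXL1, LOXL2, LOXL4, PXDN, PLOD1, PLOD2 and TGM2. LOX was named in both IPs by antisense sites alone, which was so for 0.853% of protein-coding genes. LOXL3 had sense sites in IP 1 alone, and PLOD3, the hydroxylase that also glycosylates hydroxylysine, had no site in either IP, as did 28.1% of protein-coding genes. Longer genes have more bases at which a site can be listed, and LOX and PLOD3 are the shortest of the set, with spans of 15166 and 12444 bases.

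Sense sites per 10 kb of gene span were therefore set beside those of protein-coding genes of like span, in 10 bins of equal gene number. The median of the 10 genes was 1.81 sites per 10 kb in IP 1 and 1.75 in IP 2, against 0.271 and 0.414 over protein-coding genes of any span. Within the 4 span bins that hold the 10 genes, the medians ran from 0 to 0.679 in IP 1 and from 0.528 to 0.86 in IP 2. Summed over the IPs, their median percentile within the span bins was 82.5, and that of all protein-coding genes was 43.3, since genes without a site share a mid-rank. LOXL2, PLOD2 and PXDN together held 194 of the 260 sense sites (74.6%), and LOXL2 alone held 110 (42.3%). They are also the longest genes of the set, with spans of 128140, 94214 and 112966 bases, and these shares are not scaled to span.

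**Figure D1:**
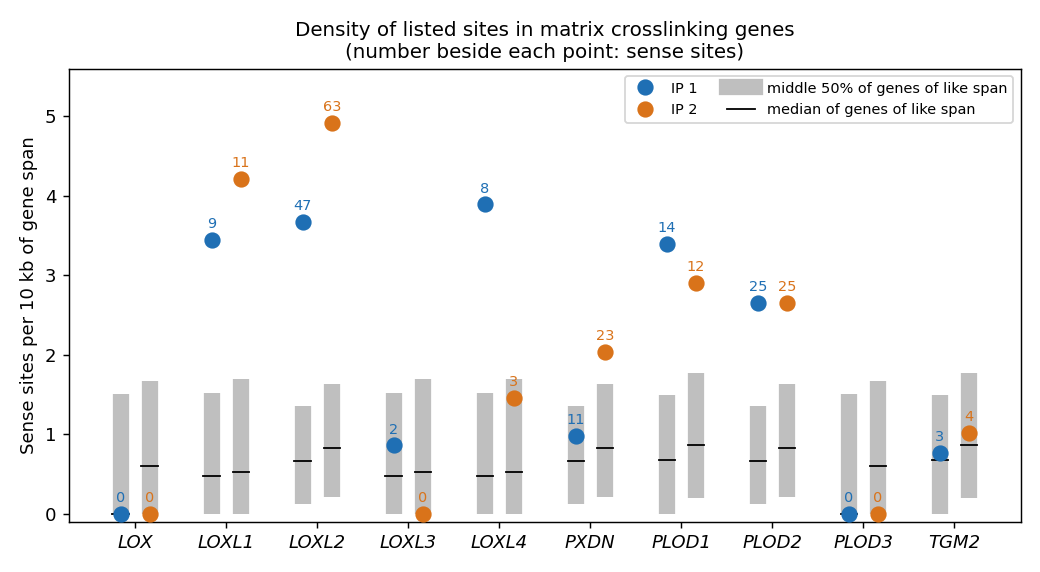
Sense sites per 10 kb of gene span (vertical axis) for each of the 10 genes in IP 1 (blue) and IP 2 (orange), with the number of sense sites beside each point. Grey bars are the middle 50% and black lines the median of protein-coding genes of like span in the same IP; LOXL1, LOXL2, PLOD1 and PLOD2 lie above the bars in both IPs, while LOX and PLOD3 are at 0.

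LOXL2, a lysyl oxidase with scavenger receptor domains that crosslinks collagen IV, had the most sites. The gene lies on chromosome 8 (23297189 to 23425328, minus strand). IP 1 listed 47 sense sites on it and IP 2 listed 63, or 3.67 and 4.92 per 10 kb. Nearly all were intronic, 43 in IP 1 and 63 in IP 2. They spread over 11 of the 13 introns of the principal transcript: the first intron (35.5 kb) held 15 and 16 sites and the third (18.9 kb) 7 and 15. The short introns 7 (2.08 kb) and 8 (2.77 kb) had the highest densities, from few sites. Intron 7 had 9.63 sites per 10 kb in IP 1 and 24.1 in IP 2, from 2 and 5 sites. Intron 8 had 21.7 and 14.4, from 6 and 4 sites, but the 6 of IP 1 are neighbouring deleted bases. They count as 2 runs, since the base at 23318431 had 3 tags and the others 2. With each run counted once the density of intron 8 in IP 1 was 7.22, below the 9.63 of intron 7. The first 21 kb of the annotated span, before the start of the principal transcript, held no site given to LOXL2. That stretch overlaps ENTPD4 on the same strand, and the lists give 7 sites there to ENTPD4. The overlap covers 39546 bases and so runs on into intron 1, where the lists give sites to LOXL2. By position, intron 1 sites inside the overlap could belong to either gene, so the LOXL2 counts and densities rest on the authors' assignment there.

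In the exons of LOXL2, IP 1 listed 4 sites and IP 2 listed 0; this difference was not tested. A deletion in the 3′ UTR of exon 14 had 79 tags, 3 of them mutated (3.8%), and a deletion of 2 bases in exon 2 had 69 tags, 3 of them mutated (4.35%). These were the most tags over any member site. In IP 1, 5 exon sites of protein-coding genes had 69 or more tags, a bound taken from LOXL2 itself: these 3 LOXL2 bases and 1 site each of the mitochondrial genes MT-CO3 and MT-ND5. In IP 2, 7 exon sites reached that bound, 3 in HSP90AA1, 2 in ITGB1 and 1 each in the mitochondrial genes MT-CYB and MT-ND4L. The remaining LOXL2 exon site of IP 1 was an insertion in exon 3 with 2 of 9 tags mutated. Over the LOXL2 sense sites the tags, summed base by base, were 351 in IP 1 and 209 in IP 2. A tag over neighbouring listed bases is counted at each base, so the exon 2 deletion enters at both of its bases. Without the 3 sites of 69 or 79 tags the sums were 134 and 209. The direction between the IPs thus turned with those 3 sites. How many tags cover the same exons in IP 2 is not in the lists, which give tags at listed bases only.

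The most mutated LOXL2 sense sites of IP 1 were 4 substitutions with 4 of 4 tags mutated, in introns 3, 5, 6 and 7. Those of IP 2 were 2 substitutions in intron 3 with 8 of 8 tags mutated. In IP 2, 13 LOXL2 sense sites had 4 or more mutated tags, against 4 in IP 1. Over both IPs LOXL2 also carried more antisense sites than any other member, 12 in IP 1 and 4 in IP 2. It has the longest span of the set (128140 bases), and these counts are not scaled to span.

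**Figure D2:**
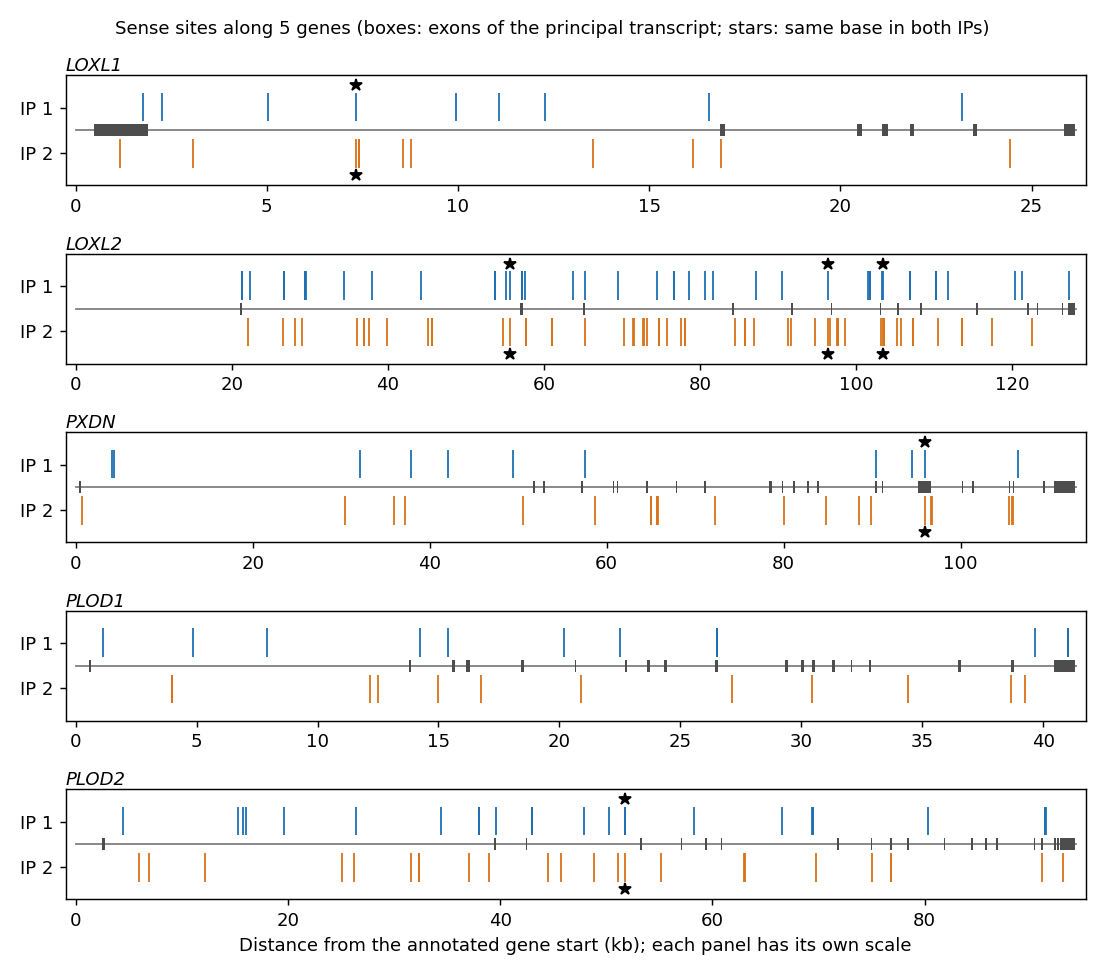
Sense sites of IP 1 (blue, above the line) and IP 2 (orange, below) along LOXL1, LOXL2, PXDN, PLOD1 and PLOD2, by distance from the annotated gene start in kb, with each panel on its own scale. Boxes are exons of the principal transcript and stars mark the bases listed in both IPs: 3 in LOXL2 and 1 each in LOXL1, PXDN and PLOD2, none in PLOD1.

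LOXL1, which crosslinks elastin, carried 9 sense sites in the list of IP 1 and 11 in that of IP 2, over a span of 26149 bases (chromosome 15, 73925989 to 73952137, plus strand). Its density of 3.44 and 4.21 sites per 10 kb stood at percentile 93.6 of its span bin in IP 1 and 95.8 in IP 2. The first intron (14968 bases) held 7 of these in IP 1 and 8 in IP 2. The strongest sites there were a substitution with 5 of 5 tags mutated in IP 1 and 2 substitutions with 3 of 3 in IP 2. In exons, IP 1 listed 1 coding site and IP 2 listed 2.

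LOXL4, a further secreted paralogue, was listed with 8 sense sites in IP 1 and with 3 in IP 2 (chromosome 10, 98247690 to 98268250, minus strand), a density of 3.89 and 1.46 per 10 kb. The sites of IP 1 were 6 intronic and 2 coding, among them the exon 8 substitution shown above, with 5 of 5 tags mutated. The sites of IP 2 were all in exons: 1 coding substitution and a 2-base deletion in the 3′ UTR, at which 2 of 10 tags were mutated. Its percentile was 95.7 in IP 1 and 70.3 in IP 2.

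LOXL3 had 2 sense sites in IP 1, which are neighbouring bases of a single deletion in intron 4 with 2 of 2 tags mutated, and 0 in IP 2. LOX, the founding member of the family, had 0 sense sites in both. By sites per 10 kb the order of the 10 genes in IP 1 was LOXL4, LOXL2, LOXL1, PLOD1, PLOD2, PXDN, LOXL3 and TGM2, then LOX and PLOD3 at 0. In IP 2 it was LOXL2, LOXL1, PLOD1, PLOD2, PXDN, LOXL4 and TGM2, then LOX, LOXL3 and PLOD3 at 0. Between the IPs LOXL4 moved from 3.89 to 1.46 and LOXL2 from 3.67 to 4.92, more than the gaps between the first 4 genes of IP 1. Those neighbours were therefore not separated by the spread of the IPs.

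The list of IP 1 gave PXDN 11 sense sites and that of IP 2 gave it 23 (chromosome 2, 1631887 to 1744852, minus strand), or 0.974 and 2.04 per 10 kb. Of these, 9 and 22 were intronic. Intron 1 (51.1 kb) held 6 and 5 sites, and the later introns held the additional sites of IP 2. Intron 7 (3.15 kb) had 0 sites in IP 1 and 6 in IP 2, and intron 14 had 0 and 3. The 6 include deletions of 2 bases at 1679182 to 1679183 and at 1679822 to 1679823, listed base by base. With each run counted once, PXDN had 11 and 21 sense sites. The coding site in exon 17, codon 964 of the principal transcript, was listed in both IPs as a substitution with 9 of 11 tags mutated in each. That share of 81.8% has an exact binomial interval of 48.2 to 97.7% at 95% in either IP. No other of the 5147 shared sense sites of protein-coding genes had as many mutated tags in both IPs, and the median over those sites of the smaller number was 2. This rank was looked up with the value of the site in view. Whether the DNA of the cells differs from the reference at this base was not tested. The next most mutated PXDN site was an intronic substitution of IP 2 with 5 of 7 tags mutated, and IP 1 also listed a coding insertion in exon 15 with 2 of 3.

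Among the lysyl hydroxylases, PLOD2 hydroxylates the ends of collagen chains, where the stable crosslinks of fibrotic tissue form. Each IP listed 25 sense sites on it (chromosome 3, 146069440 to 146163653, minus strand), or 2.65 per 10 kb. The exon classes were less even. All 25 sites of IP 1 were intronic, while IP 2 had 22 intronic sites, 2 coding sites that are the deletion shown above, with 2 of 4 tags mutated, and 1 deletion in the 3′ UTR with 2 of 8. Intron 1 (36.7 kb) held 9 and 11 sites and intron 3 (10.7 kb) held 6 and 5. No PLOD2 site of IP 1 had more than 3 mutated tags, a number that 4 sites reached. In IP 2 the most was 4 of 4, at 2 substitutions in introns 1 and 7.

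PLOD1, whose product hydroxylates lysines in the collagen helix, was given 14 sense sites by IP 1 and 12 by IP 2 (chromosome 1, 11934205 to 11975538, plus strand), or 3.39 and 2.9 per 10 kb. Its percentiles were 95.9 and 90.2. In IP 1, 6 of the sites lay in exons, but they are 2 deletions listed base by base, of which that in the 3′ UTR covers 2 bases and had 2 of 10 tags mutated. With each run counted once, PLOD1 had 10 and 12 sites. IP 2 listed 1 exon site, an insertion in exon 13 with 2 of 2 tags mutated. Intron 1 (13.1 kb) held 3 sites in IP 1 and 4 in IP 2. All 12 sites of IP 2 had 2 tags, both mutated.

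TGM2 was given 3 sense sites by IP 1 and 4 by IP 2 (chromosome 20, 38127387 to 38166578, minus strand), a density of 0.765 and 1.02 per 10 kb near the median of genes of like span (percentiles 54.1 and 55.0). Each IP listed 1 site in the 3′ UTR, the deletions shown above, with 2 of 3 tags mutated in IP 1 and 2 of 8 in IP 2. The closest sites of the 2 IPs in TGM2 were 1014 bases apart.

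**Figure D3:**
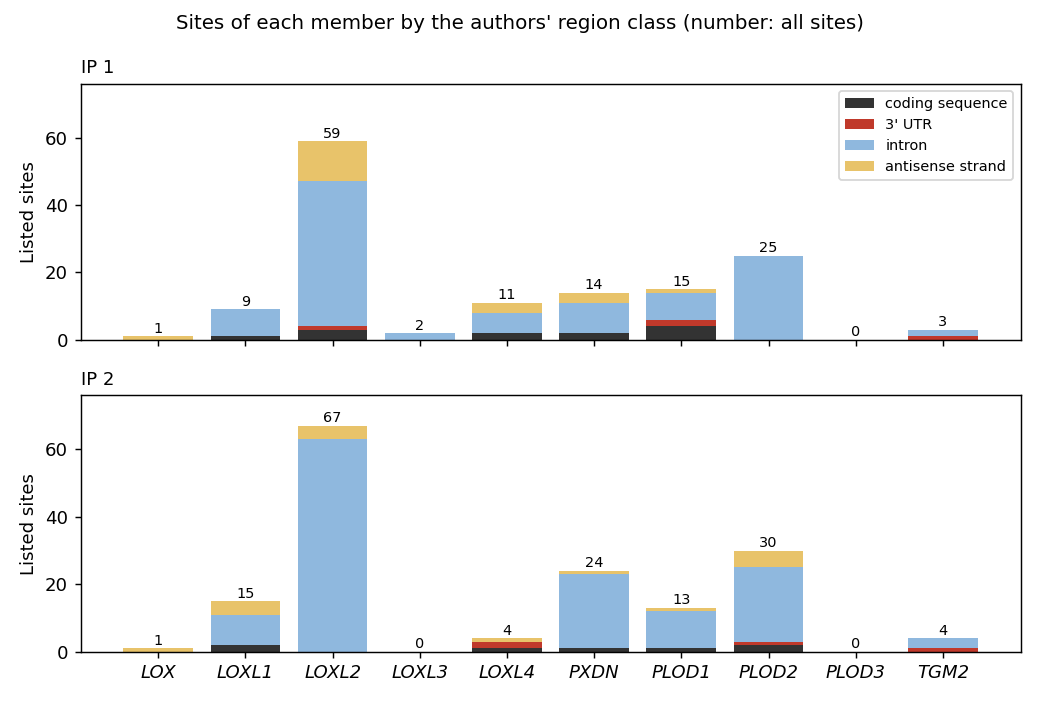
Number of listed sites (vertical axis) of each of the 10 genes in IP 1 (upper panel) and IP 2 (lower panel), coloured by the region class in the authors' lists, with the total above each bar. Introns make up most of every bar above 20 sites, and exon sites of LOXL2 appear in IP 1 alone.

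Introns held 103 of the 119 sense sites of IP 1; in IP 2 they held 130 of 141. The exon share was 13.4% in IP 1 (exact interval 7.88 to 20.9%) and 7.8% in IP 2 (3.96 to 13.5%). Over all protein-coding genes it was 9.34% and 8.76%, inside both intervals. Exon sites in both IPs were found in 5 of the 10 genes (LOXL1, LOXL4, PXDN, PLOD1 and TGM2), against 14.6% of protein-coding genes. No member had a site in a 5′ UTR, among 16 exon sites in IP 1 and 11 in IP 2. The share of such sites over protein-coding genes was not computed, so this absence is not read as a trait of the members. Deletions made up 10 of the 16 exon sites in IP 1 (62.5%, exact interval 35.4 to 84.8%) and 7 of the 11 in IP 2 (63.6%, 30.8 to 89.1%). Over protein-coding genes they were 38.9% and 41.2% of exon sites, inside both intervals. Of all sense sites, deletions were 31.9% and 26.2% in the members and 25.7% and 26.5% in protein-coding genes. Of the 10 exon deletion sites of IP 1, 6 belong to the 2 PLOD1 deletions. Per base, members' exons held 2.63 sites per 10 kb in IP 1 and 1.81 in IP 2, and their introns 2.28 and 2.87. With runs counted once the members' exons held 1.81 in IP 1 and 1.48 in IP 2 and their introns 2.05 and 2.65, so the direction in IP 1 turned. For all protein-coding genes the exon values were 0.95 and 1.07 and the intron values 0.751 and 0.912, and with runs counted once 0.827 and 0.926 against 0.682 and 0.824.

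The pooled member sense sites rested on the minimum of 2 tags less often than sites of protein-coding genes. Sense sites with 2 tags were 74 of 119 in IP 1 (62.2%) and 86 of 141 in IP 2 (61.0%). Over protein-coding genes they were 77.1% and 75.5%. The share was uneven among the genes. LOXL2 had 28 of 47 such sites in IP 1 and 38 of 63 in IP 2, and PLOD2 16 of 25 and 11 of 25. LOXL1 had 5 of 9 and 4 of 11, and TGM2 1 of 3 and 2 of 4. PXDN had 7 of 11 and 18 of 23, and PLOD1 8 of 14 and 12 of 12. LOXL4 had 7 of 8 and 1 of 3, and LOXL3 2 of 2 in IP 1. Above the protein-coding share lay LOXL3 and LOXL4 in IP 1 and PXDN and PLOD1 in IP 2. All tags were mutated at 72.3% of member sense sites in IP 1 (interval 63.3 to 80.1%) and 77.3% in IP 2 (69.5 to 83.9%), against 84.8% and 84.0%, above the upper bound in each. These intervals treat the sites as independent, which neighbouring bases of 1 deletion are not, and they cover counting error only. Every listed site has at least 2 mutated tags, so a site with 2 tags is always fully mutated. The lower share of full mutation therefore partly restates the lower share of 2-tag sites, and is not a separate difference.

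**Figure D4:**
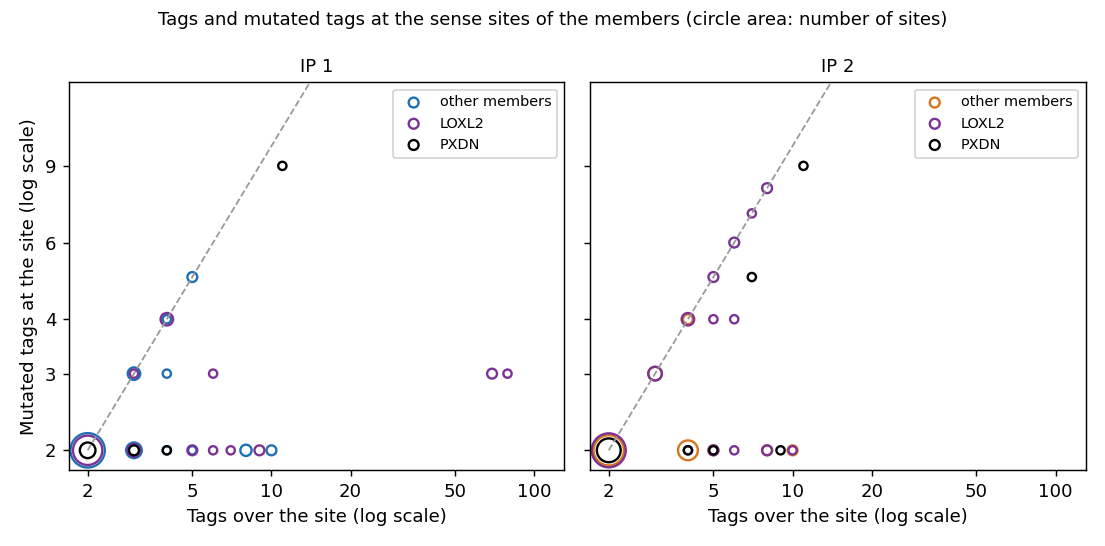
Tags over a site (horizontal axis, log scale) against mutated tags (vertical axis, log scale) at the sense sites of the 10 genes in IP 1 (left) and IP 2 (right); circle area grows with the number of sites at a point and the dashed line is full mutation. The PXDN point at 11 tags and 9 mutated tags is in both panels, and the LOXL2 points at 69 and 79 tags are in IP 1 alone.

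The IPs were also compared base by base. Of the member sites, 6 were at the same base and strand in both, which is 4.32% of those of IP 1 (interval 1.6 to 9.16%) and 3.8% of those of IP 2 (1.41 to 8.08%). The shares over protein-coding genes were 4.68% and 3.7%. The 6 bases lay in 4 of the 10 genes, against 14.9% of protein-coding genes with at least 1 shared base. Besides the PXDN coding site, they were 3 intronic substitutions of LOXL2, 1 of LOXL1 and 1 intronic deletion of PLOD2. The LOXL2 bases were 23321831 in intron 7, 23328925 in intron 5 and 23369718 in intron 1 of chromosome 8. All of these intronic sites had 2 of 2 tags mutated in each IP, except the intron 5 site of LOXL2, with 4 of 4 in IP 1. The LOXL1 base was 73933326 of chromosome 15, in intron 1, and the PLOD2 base 146111846 of chromosome 3, in intron 3. LOXL4, PLOD1 and TGM2 had sense sites in both IPs and no shared base.

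The median distance from a sense site of IP 1 to the nearest one of IP 2, shared bases included, was 432 bases in LOXL2, 697 in PLOD1, 975 in PLOD2 and 1180 in both LOXL1 and PXDN. Within 100 bases of a site of IP 2 lay 4 of the 47 sense sites of IP 1 in LOXL2 and 2 of the 25 in PLOD2, of which 3 and 1 were the shared bases.

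Whether the number of sites of a gene differed between the 2 libraries was tested with a two-sided exact binomial test against the IP 1 share over all protein-coding sense sites (45.3%), with Benjamini-Hochberg adjustment over 13442 genes with a sense site. It compares 2 libraries, not conditions. Of those genes 2 passed an adjusted p of 0.05 (0.0149%), and 6.52% had an unadjusted p below it. None of the 8 members tested passed, either adjusted or unadjusted. LOXL4 came nearest, with 8 and 3 sites, an IP 1 share of 72.7% (interval 39.0 to 94.0%) and an adjusted p of 0.846 in the exact test. For PXDN, with 11 and 23 sites, the IP 1 share was 32.4% (17.4 to 50.5%) and the exact adjusted p was 0.962. For LOXL2 the share was 42.7% (33.3 to 52.5%). The intervals for LOXL4 and PXDN are wide, so differences of the size seen were not resolved at these counts.

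The genes that act with the crosslinking enzymes were taken from a list of 37 others: prolyl hydroxylases, chaperones and processing proteases of procollagen, other transglutaminases and cofactors. By sense sites, 26 of the 37 were found in both IPs, beside 50.8% of protein-coding genes. No site in either IP was listed for 5, beside 28.1%, namely P4HA3, EFEMP2, TGM4, TGM5 and TGM7. Their median density was 0.482 sites per 10 kb in IP 1 and 1.24 in IP 2. The most sites fell in ADAMTS3, a procollagen N-proteinase (46 in IP 1 and 61 in IP 2), and in the prolyl 3-hydroxylase P3H2 (41 and 61). TLL1, a procollagen C-proteinase, had 17 and 32, the prolyl 4-hydroxylase subunit P4HA1 20 and 24, and the matrix protein FBLN1 22 and 13. These counts are not scaled to span, which is 288418 bases for ADAMTS3 and 230638 for TLL1. By density the order differed: ADAMTS3 had 1.59 and 2.11 sites per 10 kb and TLL1 0.737 and 1.39, against 4.37 and 6.12 in P3H3. A shared base was found in 9 of the 37, beside 14.9% of protein-coding genes: P3H2, P3H4, FKBP10, FKBP14, COLGALT1, BMP1, TLL1, PXDNL and ATP7A, the copper transporter that loads lysyl oxidases. PXDNL, the paralogue of PXDN, had 17 sense sites in each IP over a span of 489868 bases, a density of 0.347.

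Of 9 substrates of the enzymes, 5 had sense sites in both IPs, beside the same 50.8%, and the median density was 0.545 and 0.712 sites per 10 kb. COL4A1 and COL4A2, the collagen IV chains that PXDN and LOXL2 act on, had 3.1 and 3.62 sites per 10 kb in IP 1 and 4.11 and 4.0 in IP 2. FN1, a transglutaminase 2 substrate, had 2.64 and 2.38. COL5A1 had 0.345 and 0.591 and COL6A1 had 1.72 and 2.57. The fibrillar chains COL1A2 and COL3A1 had 0 sites, COL1A1 had 1 in IP 1 and 0 in IP 2, and elastin (ELN), the substrate of LOXL1, had 0 and 3.

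By density in the 2 IPs, the genes of like span nearest to LOXL2 were HS3ST3A1, PHF2 and PAFAH1B1. The distance in log2(sites per 10 kb + 0.1) over the 2 IPs was 0.0409, 0.146 and 0.199. HS3ST3A1 had 38 and 53 sense sites, PHF2 39 and 56, and PAFAH1B1 36 and 40.

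In both lists the median site had 2 tags. Tags summed base by base over the sites of the whole list were 419675 for IP 1 and 572870 for IP 2. Of 11 proximal tubule markers 4 had sense sites in both IPs (LRP2, CUBN, GGT1 and PAX8), beside 50.8% of protein-coding genes, and AQP1, ANPEP, SLC22A6 and SLC5A2 were among those with none in either. None of 5 leukocyte markers had a sense site. Sense sites in both IPs were found for 3 of 5 epithelial, 1 of 7 fibroblast and 2 of 5 endothelial markers.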

How the data were processed

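RNA from 2 PARP1 IPs of HK-2 cells was analysed. The submitters' processing notes name bcl2fastq, TopHat2 and build GRCh38. How sites were called, with which thresholds, and how duplicates were treated is not given in the sources used here. Values, per the column headers, are deposited as whole-number counts of tags and of mutated tags at each 1-base site. Beside them stands the authors' false discovery rate (FDR) of the site. The region class and gene of a site are also the authors'. Their lists matched the IPs by name and number. Every site had at least 2 mutated tags, and the deposited score equalled that number. Tag counts at unlisted bases are unknown, so depth is known at listed sites only. The libraries were PCR-amplified and no molecular identifiers are described, so tags need not be separate molecules and intervals cover counting error only.

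Gene spans, exons and transcript sequence came from GENCODE 29 (GRCh38), matched by identifier without version; all 10 members and all 86 listed symbols matched. The principal transcript is the APPRIS principal one, the longest where several qualify. A gene was named when a list gave it a site on either strand. Exons are coding sequence and UTRs. Percentiles are mid-ranks of sense sites per 10 kb within 10 span bins. Intervals are exact (Clopper-Pearson, 95%). The per-gene test is described with its result and was checked on simulated independent counts, with differences set in genes with many sites. That check does not cover neighbouring bases of 1 deletion listed as several sites, or differences in genes with few sites. The software was scipy 1.17.1 and pandas 2.3.3.

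The members and lists were chosen with earlier results of these data known, so lists are described by counts and medians, without tests. Named were all members, their shared sites, the most mutated sense site of each in each IP, and by count the genes of the other lists. The exon sequences, the 69-tag bound, the rank of the PXDN coding site and the 5 genes mapped were selected with their values in view. Alternatives tried were a stricter FDR, at least 3 tags, substitutions only, wider matching, other bins and either IP alone; counting runs of neighbouring bases once was added after the data were seen. Some items are not reported here.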

Additional observations from a re-analysis of the deposited data

How the results depend on the processing

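No paired analysis was possible because the lists cover the 2 IPs and no inputs. The members named in both IPs numbered 8, fell to 5 with exon sites alone and to 4 with a shared base required, and were 6 to 8 with the other filters on sites; with either IP alone they were 8 to 9. The 260 sense sites became 135 when limited to sites below the most common FDR of their list, 100 with at least 3 tags and 160 as substitutions alone, and 119 to 141 in a single IP, since these settings keep fewer sites. Counting runs once left 233. Of the 6 shared bases, 2 remained below the most common FDR and 1, the PXDN coding site, with at least 3 tags. Matching within 10 bases gave 6 and within 100 bases 8. The exon share of 10.4% over both IPs was 16.3% below the most common FDR, 22.0% with at least 3 tags and 4.38% for substitutions alone, and 7.8 to 13.4% in a single IP; the cause was not tested. The median percentile of 82.5 was 73.2 by exon sites per exonic length, 83.8 with runs counted once, 80.2 below the most common FDR, 81.4 for substitutions alone and 77.5 to 78.4 in a single IP. The test between the IPs called 0 members under each of 5 alternatives, where the smallest adjusted p ranged from 0.531 to 1.0 (exact binomial test), and 1 had an unadjusted p under 0.05 with substitutions alone. Most sites rest on 2 tags, which limits every count of a single gene with few sites.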

Other observations

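Sites that the authors' lists class as antisense to a member numbered 20 of 139 in IP 1 (14.4%, exact interval 9.02 to 21.3%) and 17 of 158 in IP 2 (10.8%, 6.39 to 16.7%). Over protein-coding genes the shares were 11.1% and 15.2%. LOXL2 held 12 of the 20 in IP 1 and 4 of the 17 in IP 2. PLOD2 had 0 and 5 antisense sites, LOXL1 0 and 4, PXDN 3 and 1, and LOXL4 3 and 1. The 4 of LOXL1 are neighbouring bases of 1 deletion. With runs of neighbouring bases counted once, LOXL1 had 0 and 1, LOXL2 had 8 and 4, and the 10 genes together 16 and 14. Noncoding genes annotated on the opposite strand overlap LOXL1 (LOXL1-AS1), LOXL2, LOXL4 and PLOD2. Some opposite-strand sites within member spans were given to other genes and are not in these counts. Over both IPs the lists gave LOXL2 16 of the 26 opposite-strand sites within its span, LOXL4 4 of 9 and PLOD2 5 of 6. No member antisense base was listed in both IPs.

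The antisense sites of LOX were deletions with 2 of 2 tags mutated, 1 in each IP, at 122077053 in IP 1 and 122076718 in IP 2 on chromosome 5. SRFBP1 is annotated on that strand and ends at 122075570, so both sites lie past its end, by 1483 and 1148 bases.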
